A study of Mus musculus with 8 samples.

Results

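Fatty acid oxidation was followed through 35 genes that encode its mitochondrial and peroxisomal machinery, in kidneys of mice at postnatal day 3. The set was a list of gene symbols matched to the table of 35976 genes, and the matching used no measured value, though the list was drawn up with earlier results of these data known. All 35 were found, and all 35 had enough reads to be among the 18156 genes tested. By the known location of their proteins, 21 are mitochondrial, 11 are peroxisomal and 3 (Crat, Acsl1 and Eci2) work in both or in several places and were counted apart.

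The study compared control kidneys (labelled Slc12a3 Cre/+; C1 +/+) with mutant kidneys (Slc12a3 Cre/+; C1 YAP/+), and its design text describes the mutants as Yap1 gain of function. There were 2 libraries of poly(A)-selected RNA in each of 4 groups: male controls, female controls, male mutants and female mutants. The Cre allele, carried by controls as well as mutants, is named for Slc12a3, the gene of the sodium chloride cotransporter that marks the distal convoluted tubule. The title of the series places the Yap1 activation in distal nephron segments, whereas fatty acid oxidation is strongest in the proximal tubule. What C1 stands for is not explained in the labels, nor whether the 2 libraries of a group are from different animals, so p-values measure the spread between libraries, which may be technical.

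Levels are given as scaled RPKM, that is, reads per kilobase of gene length and per 1e6 reads, divided by a scaling factor per library. Replicate 1 libraries held 78.2 to 87.1 and replicate 2 libraries 22.8 to 25.2, in units of 1e6 reads. Yap1 itself was at 35.5 ± 3.98 scaled RPKM in controls and 35.5 ± 0.771 in mutants (SD, n = 4), and whether reads of the YAP allele count on it is not known here. Lower or higher refers to mutants against controls over 4 libraries each, with sex in the model (limma on log2 of scaled RPKM plus 0.1). A gene passed where its p-value, adjusted over all genes tested by Benjamini-Hochberg, was under 0.05. The folds are on that log2 scale, which understates the change of genes near 0.

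Mitochondria break fatty acids down by beta-oxidation. A fatty acid is first joined to coenzyme A, long chains cross the inner membrane bound to carnitine, and the chain is then shortened by a repeated cycle of oxidation, hydration, second oxidation and thiolytic cleavage that feeds electrons to the respiratory chain. Peroxisomes run a parallel cycle with their own enzymes for very long and branched chains and for bile acid precursors, and their first step passes electrons to oxygen. Proximal tubule cells depend on this pathway for fuel, and many of its genes are known targets of the nuclear receptor PPAR alpha.

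The regulatory sequences below introduce members whose results are compared later. They are RefSeq sequences of GRCm38.p6, the build that the submitters' processing notes call mm10, and promoters were matched for 31 of the 35 members. Hadha and Hadhb, the genes of both subunits of the mitochondrial trifunctional protein, lie head to head on chromosome 5 and are read in opposite directions. The RefSeq starts lie 272 bases apart, and between the GENCODE ends of both genes lie 85 bases (chr5:30155163-30155247, plus strand) with a GC content of 69.4% and 9 CpG pairs, shown because both genes start around one stretch of DNA.
Hadha and Hadhb, shared stretch: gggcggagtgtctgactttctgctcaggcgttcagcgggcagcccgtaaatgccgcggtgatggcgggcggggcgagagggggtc

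Acaa1a and Acaa1b encode paired peroxisomal thiolases from separate places on chromosome 9. The 120 bases before each start are shown because the mRNAs share long stretches while the upstream sequences do not, with 51.4% identical columns over 250 aligned upstream bases. The first is chr9:119341174-119341293 on the plus strand and the second is chr9:119157094-119157213 on the minus strand. These are RefSeq starts. In GENCODE the Acaa1a gene already starts at 119339676, so its stretch lies inside that gene, whereas the Acaa1b stretch borders its gene at 119157093.
Acaa1a, upstream: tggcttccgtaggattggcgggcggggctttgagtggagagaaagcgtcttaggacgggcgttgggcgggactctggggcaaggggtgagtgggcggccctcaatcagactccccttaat
Acaa1b, upstream: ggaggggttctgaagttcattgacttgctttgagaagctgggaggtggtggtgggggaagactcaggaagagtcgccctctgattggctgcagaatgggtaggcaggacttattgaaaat

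PPAR alpha is known to bind a pair of AGGTCA hexamers that run in the same direction with 1 base between them. The promoters (250 bases before to 50 after each start) were read for such a pair on both strands with at most 2 mismatches over the 12 fixed bases. It was present for 4 of 31 members (12.9%) and for 4.40% of 27025 genes, and at 1 mismatch for 0 members and 0.644% of all genes. The 2 matches that lie before the start are shown with the pair and its spacer in capitals, for Echs1 (chr7:140116477-140116529, minus strand) and Etfa (chr9:55512283-55512345, minus strand, with the pair read on the opposite strand). The other 2, in Acox2 and Slc25a20, lie after the start. A match describes letters only and does not show binding.
Echs1: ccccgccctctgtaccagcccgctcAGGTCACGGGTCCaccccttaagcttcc
Etfa: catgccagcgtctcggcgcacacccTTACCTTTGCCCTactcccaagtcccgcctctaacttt

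Most fatty acid oxidation genes were lower in mutant kidneys. Of the 35 members, 25 fell, 0 rose and 10 did not pass, and the median log2 change was -0.52. Over all 18156 genes tested, 13.0% were called lower and 13.2% higher, and the median log2 change was 0.01. Without adjustment 1 member was higher at a p-value under 0.05, and voom on reads recovered from the RPKM values also called 0 higher. All 35 together held 0.569% to 0.587% of the reads in control libraries and 0.362% to 0.431% in mutant libraries. In 25 members every mutant library lay below every control library, against 14.8% of all genes, and 1 member, Crot, had every mutant library above every control library, against 15.7% of all genes. More than 2-fold falls were called for 5 members and for 3.04% of all genes.

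**Figure D1:**
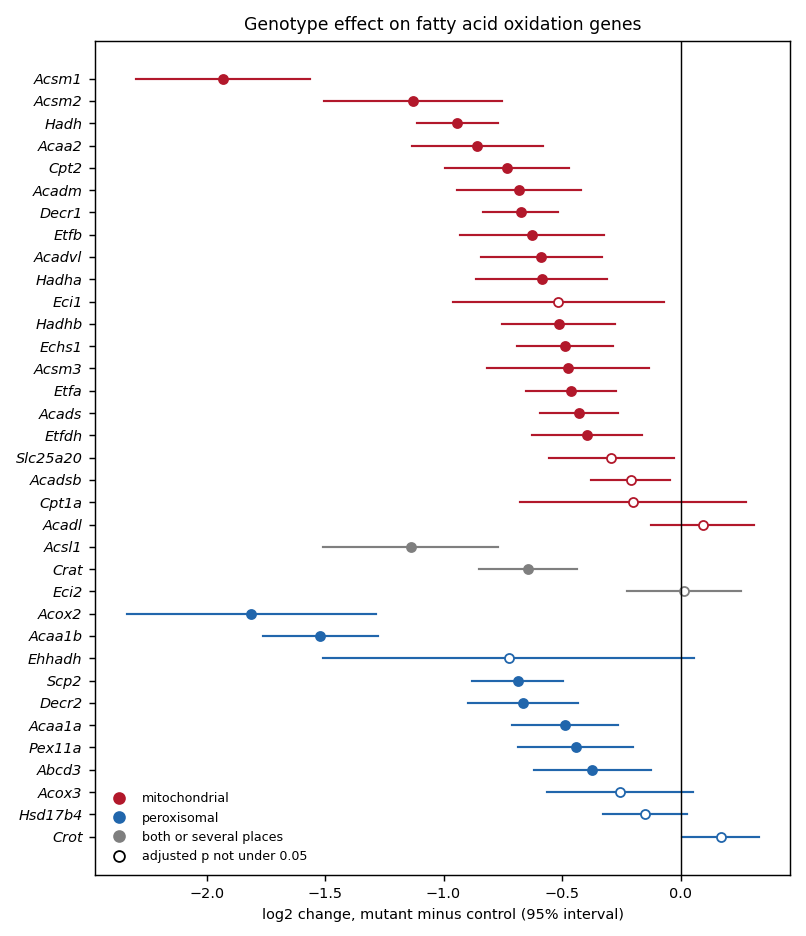
The log2 change (mutant minus control, over 8 libraries) of each of the 35 genes with its 95% interval, grouped by mitochondrial, several-place and peroxisomal proteins. Filled points passed an adjusted p of 0.05, and the changes run from -1.93 for Acsm1 to 0.17 for Crot.

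Markers of the proximal tubule, the segment that uses this pathway most, were lower in the mutant libraries too. Of 30 such genes 27 fell and 0 rose, with a median log2 change of -1.32. Their summed level was 5600.0 to 6601 scaled RPKM in control libraries and 1618 to 2150.4 in mutant libraries, and none of the 30 was at 0 in every library. Slc34a1, the proximal phosphate transporter, was at 233 and 276 in male controls and 236 and 291 in female controls, and at 49.97 and 69.7 in male mutants and 81.1 and 67.4 in female mutants. In whole kidney, fewer cells of a type and less RNA per cell cannot be told apart, and the part of these markers in the results on oxidation genes was not tested. Markers of other kidney cells were lower as well. Of the thick ascending limb markers 8 of 10 fell (median log2 change -1.25), of the collecting duct markers 10 of 12 (-1.01), of the distal convoluted tubule markers 8 of 12 with 2 higher (-0.99), of the endothelial markers 6 of 10 (-0.50) and of the podocyte markers 6 of 10 (-0.37). Of 12 macrophage markers, 12 rose, with a summed level of 74.3 to 94.4 in control libraries and 296 to 357 in mutant libraries, and the part of these lists was not tested either.

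Markers of tissue around the kidney were high in single libraries. Adipoq, the fat cell hormone gene, was at 4.02 scaled RPKM in male control 1, 5.12 in male mutant 2 and 5.97 in female mutant 2, and at 0.010 to 0.522 in the other 5 libraries. Of 12 fat cell markers 10 were tested, and 2 fell and 1 rose. The summed level of the list was 27.9 to 63.9 in control libraries and 11.1 to 38.9 in mutant libraries. Alb, the liver albumin gene, was at 37.3 in female mutant 2 and at 0.048 to 1.77 elsewhere. Of 12 hepatocyte markers 9 were tested, and 0 fell and 2 rose. The summed level of that list was 14.1 to 20.3 in control libraries and 19.4 to 104 in mutant libraries. The adrenal markers summed to 0.998 to 1.73 in all 8 libraries. A setting chosen after seeing the data left out the 3 libraries high in Adipoq (male control 1, male mutant 2 and female mutant 2). There 17 of 35 members were called lower, against 25 over 8 libraries. Of all 18156 genes tested, 3148 were called in either direction there, against 4745. Called lower were 10 of the mitochondrial members (median log2 change of the class -0.44) and 5 of the peroxisomal ones (-0.50). The 8 calls that did not hold there were those of Acsm3, Acads, Etfa, Etfb, Etfdh, Echs1, Acaa1a and Pex11a (adjusted p 0.0557 to 0.370).

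Members of both organelles were lower. Among the mitochondrial members 16 of 21 fell, with a median log2 change of -0.52, and among the peroxisomal members 7 of 11 fell, with a median of -0.49. Of the 3 members of several places, Crat and Acsl1 fell and Eci2 did not pass. Summed over the class, mitochondrial members were at 2022 to 2414 scaled RPKM in controls and at 1386 to 1582 in mutants. Peroxisomal members were at 383 to 419 in controls and at 259.7 to 291 in mutants. The peroxisomal part of both sums was 14.04% to 15.9% in controls and 15.5% to 16.1% in mutants, so the ranges overlapped.

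**Figure D2:**
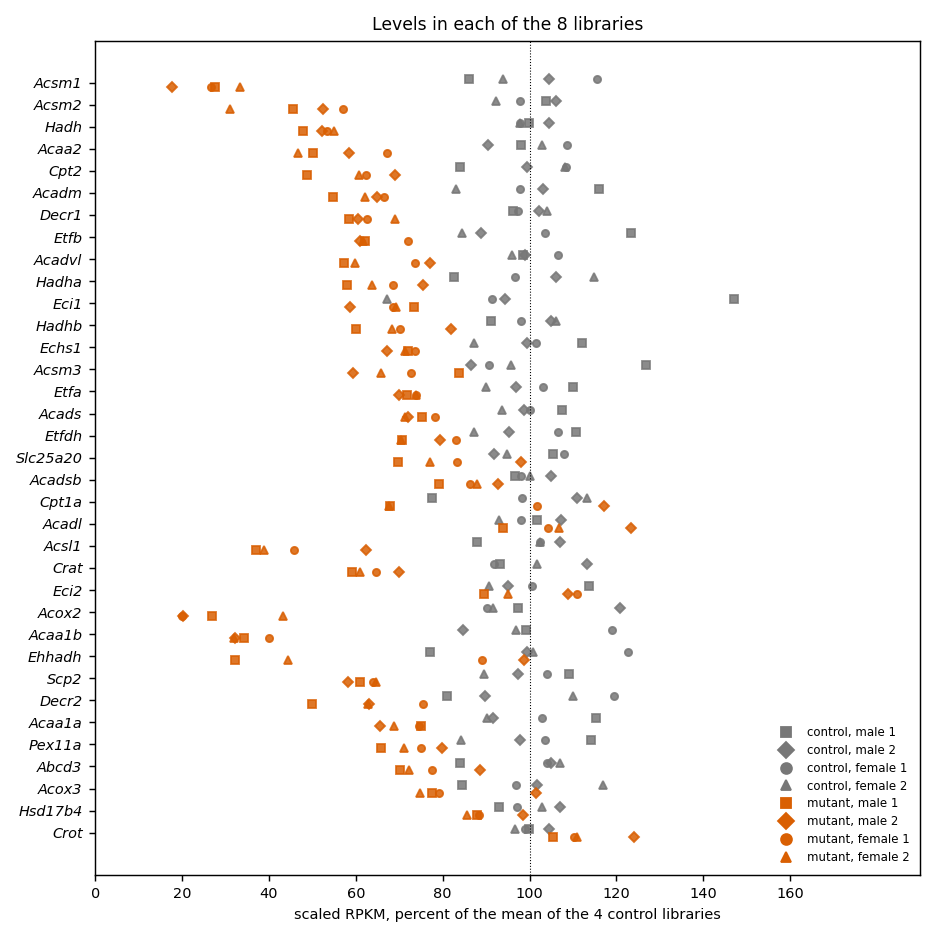
Scaled RPKM of each gene in each of the 8 libraries as a percentage of the mean of the 4 control libraries (100, dotted). Grey marks controls, orange marks mutants and the symbol gives sex and replicate. The orange symbols lie to the left of the grey ones for 25 of 35 genes, and Cpt1a has mutant libraries both above and below all of its controls.

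The enzymes that activate fatty acids had a median log2 change of -1.13, the lowest of the 8 steps, and 4 of 4 fell. Acsm1, a mitochondrial synthetase for medium chains, was at 14.4 and 17.4 in male controls and 19.3 and 15.7 in female controls. It was at 4.61 and 2.94 in male mutants and 4.43 and 5.56 in female mutants and every mutant library was below every control library. The fall was 3.81-fold (95% interval 2.96 to 4.91, adjusted p = 6.09e-05), the largest of the set in the fit over 8 libraries. Acox2, described below, had the larger fall with voom, in the replicate 1 libraries alone, without female mutant 2 and without the 3 libraries high in Adipoq. Acsm2, a neighbour of the same family, was at 20.8 and 21.3 in male controls and 19.6 and 18.5 in female controls, and at 9.13 and 10.5 in male mutants and 11.5 and 6.25 in female mutants. It fell 2.19-fold (95% interval 1.68 to 2.84, adjusted p = 0.001305), and female mutant 2 was the lowest library. Acsm3 stands beside them on chromosome 7, where the 3 genes span 119554340 to 119787513 on the plus strand (GENCODE vM21), and its level was far lower, at 2.18 ± 0.399 scaled RPKM in controls and 1.53 ± 0.226 in mutants (SD, n = 4).

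Acsm3 fell 1.39-fold (95% interval 1.096 to 1.76, adjusted p = 0.0482), and this call was lost in 11 of 20 other settings. It did not hold without male control 1, female control 1, female control 2, male mutant 2, female mutant 1 or female mutant 2 (adjusted p 0.0752 to 0.118). Nor did it hold in the replicate 1 or the replicate 2 libraries alone, with a pseudocount of 1 (adjusted p = 0.0510) or with no filter beyond 1 read (0.0863). The exons of Acsm3 overlap those of Eri2 on the opposite strand over 39.7% of their length, and the strand setting of the counting is not given in the sources used here. Acsl1, the main long-chain synthetase, which sits on mitochondria and other membranes, was at 22.6 and 27.5 in male controls and 26.3 and 26.3 in female controls. In mutants it was at 9.51 and 16.02 in male mutants and 11.8 and 9.98 in female mutants. It fell 2.203-fold (95% interval 1.71 to 2.84, adjusted p = 0.001102), and male mutant 2 was the highest of the mutant libraries.

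The carnitine shuttle was uneven, with 2 of 4 lower. Cpt2, which hands the fatty acid back to coenzyme A inside the mitochondrion, was at 29.1 and 34.5 in male controls and 37.6 and 37.5 in female controls. It was at 16.9 and 23.97 in male mutants and 21.7 and 21.1 in female mutants, and the groups did not overlap. The fall was 1.66-fold (95% interval 1.38 to 1.99, adjusted p = 0.00196). Crat, the carnitine acetyltransferase of mitochondria and peroxisomes, was at 20.4 ± 2.004 in controls and 12.995 ± 0.978 in mutants (scaled RPKM, SD, n = 4) and fell 1.56-fold (95% interval 1.35 to 1.805, adjusted p = 0.00107).

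Cpt1a, the enzyme that commits long chains to the mitochondrion and the point of control by malonyl-CoA, did not pass. Its level was 38.1 and 54.6 in male controls and 48.3 and 55.6 in female controls. In mutants it was 33.3 and 57.6 in male mutants and 50.01 and 33.3 in female mutants, so that male mutant 2 was above every control and male mutant 1 and female mutant 2 were below every control. The log2 change was -0.20 (95% interval -0.68 to 0.28, adjusted p = 0.5399). Slc25a20, the carrier that exchanges acylcarnitine for carnitine across the inner membrane, had a log2 change of -0.29 (95% interval -0.55 to -0.03, adjusted p = 0.1002). It passed without male mutant 2, the 1 mutant library within the control range (adjusted p = 0.0207), and in the replicate 1 libraries alone (0.0354), while in the replicate 2 libraries alone the log2 change was -0.10 (adjusted p = 0.727).

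For the first oxidation of the cycle, 4 of 7 members fell. The mitochondrial acyl-CoA dehydrogenases divide the work by chain length. Acadvl, for very long chains, was at 111 ± 5.1004 scaled RPKM in controls and 74.1 ± 10.9 in mutants (SD, n = 4) and fell 1.503-fold (95% interval 1.26 to 1.79, adjusted p = 0.00509). Its exons overlap Dvl2 on the opposite strand over 42.9% of their length. Acadm, the medium-chain enzyme and the most abundant of these genes per length in controls, was at 189 and 168 in male controls and 159 and 135 in female controls, and at 89.1 and 106 in male mutants and 108 and 101 in female mutants. Every mutant library was below every control library, and the fall was 1.604-fold (95% interval 1.34 to 1.92, adjusted p = 0.00269). Acads, for short chains, fell 1.35-fold (95% interval 1.2004 to 1.51, adjusted p = 0.00286).

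Acadl, the long-chain dehydrogenase, stood apart from its relatives. It was at 109 and 114 in male controls and 105 and 99.3 in female controls. In mutants it was at 100.2 and 132 in male mutants and 111 and 114 in female mutants, with male mutant 2 above all controls and the other 3 mutant libraries within their range. The log2 change was 0.09 with an interval of -0.12 to 0.31 (adjusted p = 0.533), and it was -0.02 in the replicate 1 libraries alone, so no direction can be given. Acadsb, for short branched chains, was lower in every mutant library, but its log2 change of -0.21 did not pass (adjusted p = 0.0666), though it did with genotype alone in the model (0.0432).

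Peroxisomes use acyl-CoA oxidases for the same step. Acox2, the oxidase for branched chains and bile acid precursors, was at 3.47 and 4.298 in male controls and 3.21 and 3.26 in female controls. It was at 0.956 and 0.717 in male mutants and 0.714 and 1.54 in female mutants, so every mutant library held less than every control library, and female mutant 2 was the highest of the mutants. The fall was 3.51-fold (95% interval 2.44 to 5.05, adjusted p = 0.000617). Acox3, another branched-chain oxidase, was at a like level in controls (3.403 ± 0.455 scaled RPKM, SD, n = 4) and had a log2 change of -0.26 (-0.57 to 0.05, adjusted p = 0.212).

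Electrons from the dehydrogenases pass through electron transfer flavoprotein to the ubiquinone pool, and all 3 genes of that relay fell. Etfa, the alpha subunit whose promoter match is printed above, was at 181 and 159.5 in male controls and 169.9 and 148 in female controls. It was at 118 and 115 in male mutants and 122 and 122 in female mutants, below every control, and fell 1.38-fold (95% interval 1.21 to 1.57, adjusted p = 0.00397). The call did not hold in the replicate 2 libraries alone (adjusted p = 0.0887). Etfb, the beta subunit, was the most abundant member per length, at 432 ± 75.7 in controls and 278 ± 22.4 in mutants (scaled RPKM, SD, n = 4), and fell 1.54-fold (95% interval 1.25 to 1.91, adjusted p = 0.00896). An overlapping gene model on the same strand, Gm45233, shares 67.3% of the 50-base windows of the Etfb mRNA, so its counts are uncertain. Etfdh, the oxidoreductase that delivers the electrons, fell 1.32-fold (95% interval 1.12 to 1.54, adjusted p = 0.0204), a call that did not hold without female control 1 (adjusted p = 0.0696), male mutant 1 (0.0658) or female mutant 2 (0.0646), nor in the replicate 2 libraries alone (0.188).

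For hydration and the second oxidation, 3 of 5 members fell. Hadh, the short-chain hydroxyacyl-CoA dehydrogenase of the mitochondrial matrix, was at 202 and 211 in male controls and 198 and 198 in female controls. It was at 96.6 and 106 in male mutants and 108 and 111 in female mutants. The mutant libraries lay close to each other and all below the controls, and the fall was 1.92-fold (95% interval 1.71 to 2.16, adjusted p = 4.82e-05). Echs1, the short-chain enoyl-CoA hydratase, was at 159 and 141 in male controls and 144 and 124 in female controls, and at 102 and 95.3 in male mutants and 104 and 101 in female mutants. It fell 1.402-fold (95% interval 1.22 to 1.62, adjusted p = 0.004305) and did not pass in the replicate 2 libraries alone (adjusted p = 0.0543).

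Hadha, the trifunctional subunit with hydratase and dehydrogenase activity, was at 61.6 and 79.1 in male controls and 72.1 and 85.7 in female controls. It was at 43.2 and 56.3 in male mutants and 51.2 and 47.5 in female mutants, and male mutant 1 was the lowest library. The fall was 1.501-fold (95% interval 1.24 to 1.82, adjusted p = 0.007799). Hadhb, the thiolase subunit read from the other side of the shared stretch printed above, was at 16.7 and 19.3 in male controls and 17.97 and 19.5 in female controls. It was at 11.03 and 15.04 in male mutants and 12.9 and 12.5 in female mutants, with male mutant 1 again the lowest, and fell 1.43-fold (95% interval 1.21 to 1.69, adjusted p = 0.00721). Male mutant 1 was also the lowest library for many other members, among them Cpt2, Acsl1 and Decr1, so this is not particular to the pair. A further gene model, Gm13910, shares 61.5% of the 50-base windows of the Hadhb mRNA, and the table has no row for it.

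The peroxisomal enzymes of these steps did not pass. Ehhadh, the bifunctional enzyme known as one of the most responsive PPAR alpha targets in rodent liver, was at 22.3 and 28.7 in male controls and 35.4 and 29.05 in female controls. In mutants it was at 9.27 and 28.5 in male mutants and 25.7 and 12.8 in female mutants. Male mutant 1 and female mutant 2 were below every control, and male mutant 2 and female mutant 1 were within the control range. The log2 change was -0.73 with the widest interval of the set (-1.51 to 0.06, adjusted p = 0.165). It was -1.07 without male mutant 2 (adjusted p = 0.0213), -0.43 without male mutant 1 (0.373) and -0.51 without female mutant 2 (0.373). Hsd17b4, the other bifunctional enzyme, for branched and very long chains, had a log2 change of -0.15 (-0.33 to 0.03, adjusted p = 0.207).

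All 5 thiolases, which cut off the shortened chain, were lower. Acaa2, the mitochondrial enzyme for medium chains, was at 228 and 211 in male controls and 253 and 239.5 in female controls. It was at 117 and 136 in male mutants and 156 and 109 in female mutants, all below the controls, and fell 1.81-fold (95% interval 1.495 to 2.196, adjusted p = 0.00111). Scp2, whose longer product is the sterol carrier thiolase of peroxisomes, was at 93.7 ± 7.88 in controls and 58.04 ± 2.76 in mutants (scaled RPKM, SD, n = 4) and fell 1.61-fold (95% interval 1.41 to 1.84, adjusted p = 0.000506). A pseudogene, Scp2-ps2, shares 41.4% of the 50-base windows of the Scp2 mRNA.

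Acaa1b and Acaa1a, whose upstream sequences are printed above, both fell. Acaa1b, a copy known from mouse liver and kidney, was at 43.3 and 36.97 in male controls and 51.9 and 42.3 in female controls. It was at 14.9 and 14.1 in male mutants and 17.5 and 13.9 in female mutants, and fell 2.87-fold (95% interval 2.43 to 3.39, adjusted p = 2.47e-05). Acaa1a, the more widely expressed copy, was at 81.3 and 64.7 in male controls and 72.6 and 63.6 in female controls, and at 52.95 and 46.2 in male mutants and 52.6 and 48.6 in female mutants. It fell 1.403-fold (95% interval 1.1999 to 1.64, adjusted p = 0.00695). The mRNAs share 34.0% to 35.5% of their 50-base windows, so reads from one can have been counted or lost on the other.

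Genes that prepare double bonds for the cycle were split. Decr1 and Decr2, the mitochondrial and the peroxisomal dienoyl-CoA reductase, both fell. Decr1 was at 55.2 and 58.6 in male controls and 55.8 and 59.7 in female controls, and at 33.6 and 34.7 in male mutants and 35.8 and 39.5 in female mutants, a fall of 1.597-fold (95% interval 1.43 to 1.78, adjusted p = 0.000201). Decr2 was at 13.1 and 14.5 in male controls and 19.3 and 17.8 in female controls, and at 8.05 and 10.2 in male mutants and 12.2 and 10.2 in female mutants, a fall of 1.58-fold (95% interval 1.35 to 1.86, adjusted p = 0.00164). The isomerases that move a double bond did not pass. Eci1, the mitochondrial isomerase, was at 219 and 140.3 in male controls and 136 and 99.96 in female controls. In mutants it was at 109 and 87.3 in male mutants and 102 and 103 in female mutants, and male control 1 was by far the highest library while female control 2 was inside the mutant range. The log2 change was -0.52 (-0.96 to -0.07, adjusted p = 0.0883), which passed without female control 2 (0.0272) and in the replicate 1 libraries alone (0.0400). It was -0.33 without male control 1 (adjusted p = 0.115) and -0.32 in the replicate 2 libraries alone (0.283). Eci2, the isomerase of peroxisomes and mitochondria, had a log2 change of 0.02 (-0.23 to 0.26, adjusted p = 0.938), whose sign turned without each of 4 libraries.

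The last group serves the movement of acyl groups into and out of peroxisomes (Abcd3 and Crot) and peroxisome division (Pex11a), and 2 of 3 members fell. Abcd3, a transporter of branched-chain and dicarboxylic acyl groups in the peroxisomal membrane, was at 37.1 and 46.3 in male controls and 45.9 and 47.2 in female controls. It was at 30.96 and 39.1 in male mutants and 34.3 and 31.9 in female mutants, and male control 1 lay below male mutant 2. The fall was 1.29-fold (95% interval 1.09 to 1.54, adjusted p = 0.03501), and the call was lost in 9 of 20 other settings. It did not hold without male control 2, female control 1, female control 2, male mutant 1, female mutant 1 or female mutant 2 (adjusted p 0.0759 to 0.102). Nor did it hold in the replicate 1 or the replicate 2 libraries alone. Pex11a, a membrane protein of peroxisome division and a PPAR alpha target, was at 7.52 ± 0.936 in controls and 5.48 ± 0.448 in mutants (scaled RPKM, SD, n = 4) and fell 1.36-fold (95% interval 1.15 to 1.61, adjusted p = 0.0158), which did not hold without female control 1 (0.0553) or in the replicate 2 libraries alone (0.320). Crot, the carnitine octanoyltransferase that readies shortened chains for export, was at 18.9 and 19.7 in male controls and 18.7 and 18.3 in female controls. It was at 19.9 and 23.4 in male mutants and 20.8 and 20.97 in female mutants, every mutant library above every control, yet the log2 change of 0.17 did not pass (0.01 to 0.33, adjusted p = 0.119).

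Related enzymes, in 5 of 6 pairs from different organelles or with 1 partner in both, were also compared within each library. The difference of their log2 levels was tested between genotypes by a two-sided exact permutation test whose smallest possible p is 0.0286, and adjusted over 6 pairs chosen with results known. The log2 level of Cpt2 minus that of Crot, the mitochondrial and the peroxisomal long- and medium-chain carnitine transferases, was 0.87 in controls and -0.04 in mutants (difference -0.90), with no overlap of the groups (exact permutation p = 0.0286, adjusted 0.0857). Acaa1a minus Acaa1b was 0.70 in controls and 1.73 in mutants (difference 1.03), also without overlap (exact permutation p = 0.0286, adjusted 0.0857). For Decr1 minus Decr2 the difference was -0.01 and for Hadha minus Ehhadh 0.14, with exact permutation p of 0.914 and 0.743. For Eci1 minus Eci2 it was -0.53 and for Acaa2 minus Acaa1a -0.37, with exact permutation p of 0.0571 and 0.0857. None of the 6 passed after adjustment. With only Cpt2 minus Crot and Acaa1a minus Acaa1b at the smallest possible p, no adjusted p could be under 0.05. The adjusted values therefore do not decide whether those differences changed.

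Both sexes showed lower members. Within males 18 of 35 members fell (7.40% of all genes tested) and within females 12 (5.71%), each from 2 libraries against 2 with the spread shared over all 4 groups. The median log2 change over the members was -0.57 in males and -0.49 in females. A difference of the genotype effect between the sexes was called by limma for 0 members and 0 of 18156 genes, with 0 members and 554 genes at an unadjusted p under 0.05 and 0 members also with voom. Leaving out 1 library moved the male count to as few as 9 (without male control 1) or 7 (without male mutant 1), and the female count to 4 (without either female control), 7 (without female mutant 1) or 6 (without female mutant 2).

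Members were lower at both depths. Replicate 1 and replicate 2 libraries also carry different series of numbers in their labels, so depth cannot be told apart from other differences between them. In the 4 replicate 1 libraries alone 25 members were called lower (9.19% of all genes), and in the 4 replicate 2 libraries alone 19 (8.37% of all genes). The sign of the change was the same in both for 33 of 35 members, against 13295 of 18156 genes tested. It was the same for all 25 members that passed over 8 libraries. This held for all 4745 genes called on those libraries too, so it does not set the members apart. The median log2 change was -0.58 in the deeper and -0.49 in the shallower libraries.

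Most genes of a further list, of mitochondrial fatty acid oxidation and related acyl-CoA enzymes outside the 35, fell too. Among the 25 of them tested, 18 fell, 1 rose and 6 did not pass, with a median log2 change of -0.67. The 4 with the lowest p were Pcca, a propionyl-CoA carboxylase subunit, which fell 2.17-fold, Acsm5, a further medium-chain synthetase (2.42-fold), Gcdh, the glutaryl-CoA dehydrogenase (1.98-fold), and Acad12 (1.998-fold), with adjusted p from 3.58e-05 to 0.000152. Cpt1c, a brain form of the carnitine palmitoyltransferase, was the 1 that rose (log2 change 0.43, standard error 0.12, adjusted p = 0.0345), from a low level of 1.41 ± 0.04001 scaled RPKM (SD, n = 4).

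Peroxisomal genes outside the set were lower in part. Of 42 tested, 23 fell, 1 rose and 18 did not pass, with a median log2 change of -0.28. Ephx2, a soluble epoxide hydrolase, fell 2.45-fold, Pecr, the trans-2-enoyl-CoA reductase, 2.23-fold, Dao, the D-amino acid oxidase, 1.86-fold, and Tysnd1, the protease that processes peroxisomal enzymes, 1.58-fold, with adjusted p from 5.72e-05 to 0.000124. Pex5, the import receptor, looked up after values were seen, had a log2 change of -0.05 (-0.19 to 0.10, adjusted p = 0.665). Agps, an enzyme of ether lipid synthesis, was the 1 that rose (log2 change 0.36, standard error 0.10, adjusted p = 0.0319).

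The next station of mitochondrial fuel use, the citric acid cycle, was lower in 15 of 17 genes, with a median log2 change of -0.48. Sdha, a subunit of succinate dehydrogenase, was at 173 and 191 in male controls and 163 and 186 in female controls, and at 116 and 126 in male mutants and 123.2 and 117 in female mutants, a fall of 1.48-fold (95% interval 1.304 to 1.67, adjusted p = 0.00106). Mdh2, the mitochondrial malate dehydrogenase, and Dlst, a subunit of the 2-oxoglutarate dehydrogenase complex, fell 1.43-fold and 1.49-fold. Genes that mark mitochondrial mass and biogenesis (import pores, chaperones, porins and the factors that copy mitochondrial DNA) had a median of -0.08, and 0 of 18 were called in either direction by limma. At an unadjusted p under 0.05, 5 of them were lower and 2 higher, and voom called 1 lower and 0 higher. Reads of genes encoded in mitochondrial DNA made up 1.72% to 2.48% of the reads in control libraries and 1.202% to 1.39% in mutant libraries, with no overlap, and their part in the results was not tested. Hspd1, the matrix chaperone with the lowest p among them, had a log2 change of -0.23 (adjusted p = 0.0512).

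**Figure D3:**
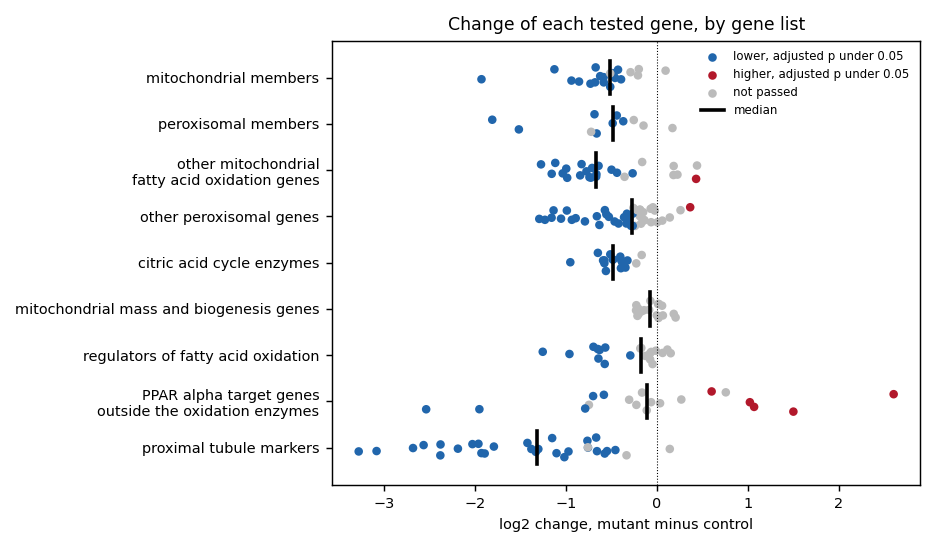
The log2 change of each tested gene in 9 gene lists (1 point per gene, black bar at the median of the list). Blue points fell, red points rose and grey points did not pass. The medians run from -1.32 for the proximal tubule markers over -0.52 for the mitochondrial members to -0.08 for mitochondrial mass and biogenesis genes.

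Among 20 transcription factors and cofactors known to govern fatty acid oxidation, 9 fell, 0 rose and 11 did not pass. Ppara, which encodes PPAR alpha, was low in controls and lower in mutants, at 1.06 and 1.41 in male controls and 1.23 and 1.32 in female controls, and at 0.524 and 0.755 in male mutants and 0.564 and 0.546 in female mutants. It fell 1.95-fold (95% interval 1.55 to 2.46, adjusted p = 0.00163). Esrrb, Esrrg and Esrra, the estrogen-related receptors that drive mitochondrial genes, fell 2.39-fold, 1.57-fold and 1.56-fold, and Ppargc1a, their coactivator, fell 1.62-fold (adjusted p from 0.00307 to 0.0148). Hnf4a, a factor of proximal tubule identity, fell 1.49-fold and is also on the list of proximal tubule markers. Klf15 fell 1.48-fold and Rxra, the partner of PPAR alpha, 1.23-fold (adjusted p = 0.0238 and 0.0489). Ppard and Pparg, the other PPAR genes, did not pass, with log2 changes of 0.06 and -0.08 and intervals of -0.17 to 0.29 and -0.53 to 0.37.

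PPAR alpha targets that are not oxidation enzymes went both ways. Of 19 tested, 5 fell, 5 rose and 9 did not pass, and the median log2 change was -0.11. By the lowest p, Cyp4a14, a fatty acid omega-hydroxylase, fell 5.81-fold (95% interval 3.17 to 10.7, adjusted p = 0.00155). Cd36, the fatty acid uptake receptor, was at 6.81 and 6.77 in male controls and 6.601 and 7.02 in female controls, and at 10.7 and 11.4 in male mutants and 9.66 and 9.74 in female mutants, so that every mutant library was above every control (log2 change 0.60, standard error 0.07, adjusted p = 0.000454). Cyp4a12b rose (log2 change 2.60, standard error 0.27, adjusted p = 0.000187) from 0.176 ± 0.0709 to 1.605 ± 0.536 scaled RPKM (SD, n = 4), with a near copy in Cyp4a12a that could share its reads.

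The mutant libraries differed among themselves in many genes of this pathway, across sex and depth. The wide intervals of Ehhadh and Cpt1a come with male mutant 2 and female mutant 1 high and male mutant 1 and female mutant 2 low. The same order was found in some PPAR alpha targets, named here after their values were seen and given without a test. Pdk4, the kinase that spares pyruvate when fat is burned, was at 3.05 and 5.17 in male controls and 6.02 and 7.04 in female controls, and at 6.05 and 17.5 in male mutants and 13.97 and 3.78 in female mutants. Angptl4, a secreted lipase inhibitor induced in fasting, was at 25.6 and 29.2 in male controls and 32.6 and 32.7 in female controls, and at 18.9 and 40.4 in male mutants and 35.5 and 18.6 in female mutants. In each of these genes male mutant 2 and female mutant 1 were above male mutant 1 and female mutant 2. Many other members had this order too, among them Cpt2, Acsl1, Acadvl, Hadha and Acaa2. The order was thus not particular to the genes above. Its share over all genes tested was not counted, so whether it reaches beyond this pathway is not known here. Others, such as Acsm1, Etfa and Scp2, did not have it. Hadh and Decr1 did not show it either. Their mutant libraries were at 96.6 and 106 (male) and 108 and 111 (female) for Hadh and at 33.6 and 34.7 (male) and 35.8 and 39.5 (female) for Decr1.

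**Figure D4:**
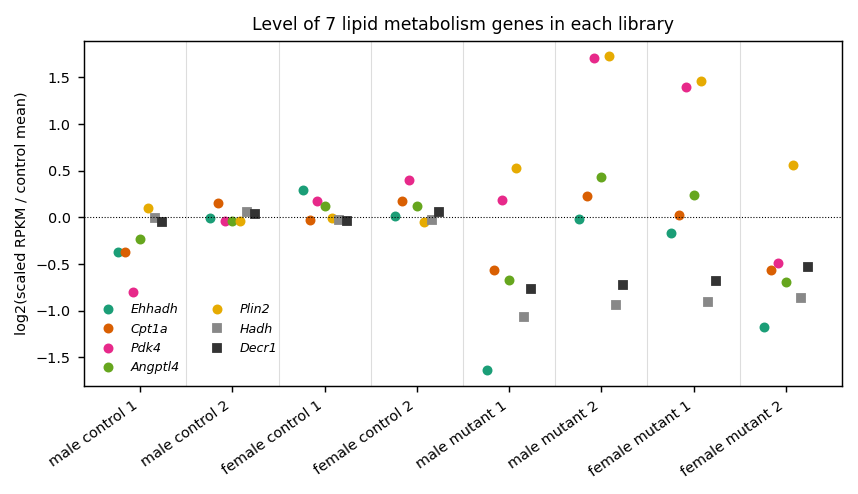
Log2 of the scaled RPKM of 7 genes over the mean of the 4 controls, in each library, with 1 color per gene. Circles mark Ehhadh, Cpt1a and 3 PPAR alpha targets, whose values in male mutant 2 and female mutant 1 lie above those in male mutant 1 and female mutant 2. Squares mark Hadh and Decr1, whose 4 mutant libraries lie near each other.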

How the data were processed

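Poly(A)-selected RNA of 8 mouse kidney libraries was sequenced, and the authors deposited 1 table of RPKM per gene with a gene length column. Per the submitters' processing notes, STAR, featureCounts and mm10 were used. The annotation is not given in the sources used here, and neither is the strand setting or the handling of multi-mapped reads. RPKM times length gave whole multiples of 1 step per library for 179720 of 179720 nonzero values (within 0.01), so reads were recovered from the steps. A gene was tested with a total of 15 reads and with 0.2 reads per 1e6 in 2 or more libraries. RPKM was divided by factors of 0.975 to 1.02, computed from the recovered reads as the trimmed mean of M values with trims of 0.3 and 0.05. On log2(scaled RPKM + 0.1), genotype and sex were fitted in limma 3.58.1 (R 4.3.3), with its trended and robust empirical Bayes step. A model of the 4 group means gave the effects within each sex and their interaction.

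Benjamini-Hochberg adjustment covered all genes tested. Libraries of a group were not repeats of 1 library, with a chi-square per degree of freedom of 22.6 to 51.2 where a gene had 20 or more reads. At each depth taken alone, 3203 (replicate 1) and 3143 (replicate 2) genes were called. The fits were tested on simulated reads, drawn apart for each gene, in which replicate 1 and replicate 2 libraries differed in depth only. Such a test does not cover other differences between those libraries in the real data. Members and gene lists were chosen with earlier results of these data known. All 35 members could be named, the regulators, markers needed to check the tissue, and in each other list up to 4 tested genes with the lowest p. Other genes named were chosen after their values were seen. Gene positions, exon overlaps and mRNA windows came from GENCODE vM21 and promoters from RefSeq GRCm38.p6. Protein sequences were not used here, and some genes are not reported here. Alternatives were other pseudocounts, scalings and filters, voom on the recovered reads, a replicate block, each depth alone, genotype alone, other class assignments and leaving out libraries.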

Additional observations from a re-analysis of the deposited data

Results flagged for a closer look

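In 3 of 70 groups of 4 libraries (each member in each genotype) the gap between the highest or lowest library and its neighbour took a larger part of the whole range than Dixon's test allows at its 95% limit. Chance alone gives about 1 in 20 such groups. Etfb stood out in female mutant 1, at 311 scaled RPKM against 264 to 269 in the other mutants (gap ratio 0.897). Acox3 stood out in male mutant 2, at 3.46 against 2.55 to 2.70 in the other mutants (0.836). Abcd3 stood out in male control 1, at 37.1 against 45.9 to 47.2 in the other controls (0.87).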

How the results depend on the processing

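Over 20 other settings, 17 to 27 of the 35 members were called, and the 35 single changes kept direction and side of the threshold in 650 of their repeats, lost the call in 35, gained it in 8 and turned sign in 7. The turns were Acadl at -0.020 (replicate 1 libraries only) and -0.0099 (without the 3 libraries high in Adipoq, a setting chosen after seeing the data), and Eci2 at -0.11 (replicate 1 libraries only) and, when 1 library was left out, -0.048 to 0.081 (below 0 without male control 2, female control 2, male mutant 2 or female mutant 1). Without the 3 libraries high in Adipoq, 10 mitochondrial members were called lower. The peroxisomal median was -0.63 in the replicate 1 libraries only. Within males 11 members were lower with no filter, and 7 to 17 when 1 library was left out. Within females the range without 1 library was 4 to 15. The cause was not tested.

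Replicate numbers shared by the groups do not come from a stated pairing. Same-numbered deviations from the group means correlated at -0.003 to 0.379 over the 6 pairs of groups. A replicate block called 27 members, with Acadsb (adjusted p = 0.0340) and Eci1 (0.0426) added, and 5473 genes, against 4745 without it, and 21 members within females against 12.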

Other observations

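Fatty acid synthesis and storage, the opposite branch of fatty acid metabolism, was described by a list of its own. Of 15 tested synthesis genes, 3 fell (20%), 0 rose and 12 did not pass, against 13.0% of all genes lower, with a median log2 change of -0.22. Dgat2, which makes triglyceride from diglyceride, fell 1.97-fold (limma, adjusted p = 7.27e-05), from 28.8 to 30.7 scaled RPKM in the 4 controls to 13.3 to 16.6 in the 4 mutants, with no overlap. Me1, the malic enzyme, fell 1.31-fold (adjusted p = 0.0218) and Elovl6, a chain elongase, fell 1.23-fold (adjusted p = 0.0496). Plin2, which coats lipid droplets and is also a PPAR alpha target, was chosen after its values were seen. It was at 28.1 to 31.1 scaled RPKM in the 4 controls. In mutants it was at 42.1 and 96.3 in males and 80.0 and 42.9 in females, so every mutant library was above every control. Its log2 change was 1.07 (standard error 0.27, adjusted p = 0.0181).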
